A study of Mus musculus with 12 samples.

Results

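The SIBLING genes (small integrin-binding ligand, N-linked glycoproteins) are Spp1, Ibsp, Dmp1, Mepe and Dspp, and all 5 are among the 55418 genes of a count table of 12 single tendon cells. The 5 genes were chosen as a family, and the family was chosen because Spp1 was the gene with the most counts in 1 wild type (WT) cell. Spp1 levels are therefore given as a description and carry no test. Of the 5 genes, 1 had 10 or more counts in any cell.

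SIBLING proteins are secreted, acidic phosphoproteins of bone and tooth matrix that carry an integrin-binding RGD motif and bind calcium and hydroxyapatite. Osteopontin, the product of Spp1, is the widely made member, found in bone, kidney, macrophages and injured soft tissue, where it inhibits crystal growth and acts on cells through integrins and CD44. Bone sialoprotein (Ibsp), dentin matrix protein (Dmp1), matrix extracellular phosphoglycoprotein (Mepe) and dentin sialophosphoprotein (Dspp) are known mainly from osteoblasts, osteocytes and odontoblasts.

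The cells came from uninjured, untreated Achilles tendons of mice on a C57BL/6 background that carried the ScxGFP reporter transgene, in which regulatory sequence of the tendon transcription factor scleraxis drives GFP. Of the 12, 6 were Tnmd-/- ScxGFP+ and 6 were WT ScxGFP+ cells. Tnmd, the X-linked gene of the tendon membrane protein tenomodulin, is deleted in every cell of the Tnmd-/- animals, so the comparison is not restricted to tendon. Because of this linkage, the paper's WT group took in hemizygous males and both homozygous and heterozygous females. The paper does not say which of these gave the 6 WT cells. Tendons were digested in collagenase for 8 h, and GFP+ cells were picked one by one and amplified with Smart-Seq2, which has no molecular identifiers. The labels give no age and name no animal for a cell. Each genotype was therefore taken as 1 sample, no difference between genotypes was tested, and intervals cover counting error only. The intervals treat amplified reads as independent.

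Between 892713 and 10333351 reads per Tnmd-/- cell and between 4516036 and 13613080 per WT cell were counted on genes. In Tnmd-/- cell 3, 51.8% of the counts were mitochondrial, against 1.75% to 7.30% in the other 11 cells. The study's heat map, and not the sample labels, marks Tnmd-/- cells 9, 10 and 20 and WT cells 4, 5 and 10 as less degraded and the others as more degraded. Every less degraded cell had more counts than every more degraded cell, so degradation and depth cannot be told apart. Tnmd had 0 to 5 counts in the Tnmd-/- cells, 10178 in WT cell 14 and 0 to 7 in the other 5 WT cells, so it did not check the genotype label of those 5. Scx had 10 or more counts in WT cells 1, 4 and 10 and at most 3 counts in any other cell.

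All 5 genes lie on the plus strand of chromosome 5 of the mouse genome (GRCm38), within 270 kb that hold no other protein-coding gene. In chromosomal order they are Dspp (ENSMUSG00000053268, 104170712 to 104180127), Dmp1 (ENSMUSG00000029307, 104202613 to 104214102), Ibsp (ENSMUSG00000029306, 104299171 to 104311469), Mepe (ENSMUSG00000053863, 104325329 to 104338611) and Spp1 (ENSMUSG00000029304, 104435118 to 104441050). Spp1 is annotated with 7 transcripts of up to 8 exons, and its exons cover 1648 bases. Of these bases, 18.8% are shared with Gm42793, a provisional gene model on the same strand that had 247 counts in all. Reads of the shared bases cannot be told apart.

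Promoter sequence is shown for Spp1, read in all 12 cells, and Dmp1, read in none, because the 250 bases before both start sites held the same 3 motifs in the same order. The sequences are from RefSeq on GRCm38, plus strand, 5′ to 3′, at chr5:104434861-104435110 for Spp1 and chr5:104202367-104202616 for Dmp1. Capitals mark matches on either strand to 4 motifs: AACCACA, the core bound by RUNX factors; the CCAAT box, which on the minus strand reads ATTGG; the TATA box letters TATAAA; and their variant TTTAAA. No 2 matches overlapped.
Spp1: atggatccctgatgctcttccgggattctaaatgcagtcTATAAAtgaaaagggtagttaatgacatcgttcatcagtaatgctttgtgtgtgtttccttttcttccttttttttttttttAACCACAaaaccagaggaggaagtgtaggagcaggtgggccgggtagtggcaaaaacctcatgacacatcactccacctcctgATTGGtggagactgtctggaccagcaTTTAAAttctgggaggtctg
Dmp1: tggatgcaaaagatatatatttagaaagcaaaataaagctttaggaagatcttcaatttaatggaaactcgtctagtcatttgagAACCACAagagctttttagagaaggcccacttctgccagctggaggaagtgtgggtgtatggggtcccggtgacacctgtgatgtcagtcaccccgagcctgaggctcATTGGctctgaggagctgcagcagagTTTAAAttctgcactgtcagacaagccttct
In Spp1 the motifs started 211 (TATAAA), 129 (AACCACA), 46 (ATTGG) and 20 (TTTAAA) bases before the start site, and in Dmp1 165 (AACCACA), 57 (ATTGG) and 31 (TTTAAA) bases before it. AACCACA was found in 4.41% of 32536 mouse promoters of this length, CCAAT in 33.8%, TATAAA in 12.3% and TTTAAA in 12%. The promoter of Ibsp held ATTGG and TTTATA, 54 and 28 bases before the RefSeq start, and that of Mepe held TTTATA and ATTGG, 173 and 21 bases before it. Neither held AACCACA in this window. The RefSeq start of Ibsp lies 116 bases inside the gene as placed above, so both Ibsp matches lie within that gene. Of the 5 genes, 4 had a promoter in the RefSeq table used, all but Dspp. A match to a motif is a description of the sequence, and no binding was measured here.

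Spp1 was read in every cell, at levels from that of a gene of middle rank to that of the leading gene. In counts per 1000000 counts of the cell (CPM), the Tnmd-/- cells 1, 3, 7, 9, 10 and 20 held 27.9, 494, 1008, 28302, 38366 and 3462. The WT cells 1, 2, 4, 5, 10 and 14 held 3242, 34321, 29448, 67528, 71904 and 62.0. The genotypes overlapped over most of this range: the 2 highest cells were WT, the lowest cell was Tnmd-/-, and the second lowest was WT. The counts behind these values ran from 148 in Tnmd-/- cell 1 to 978840 in WT cell 10, with exact binomial (Clopper-Pearson) 95% intervals of 23.6 to 32.7 CPM and 71767 to 72042 CPM.

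**Figure D1:**
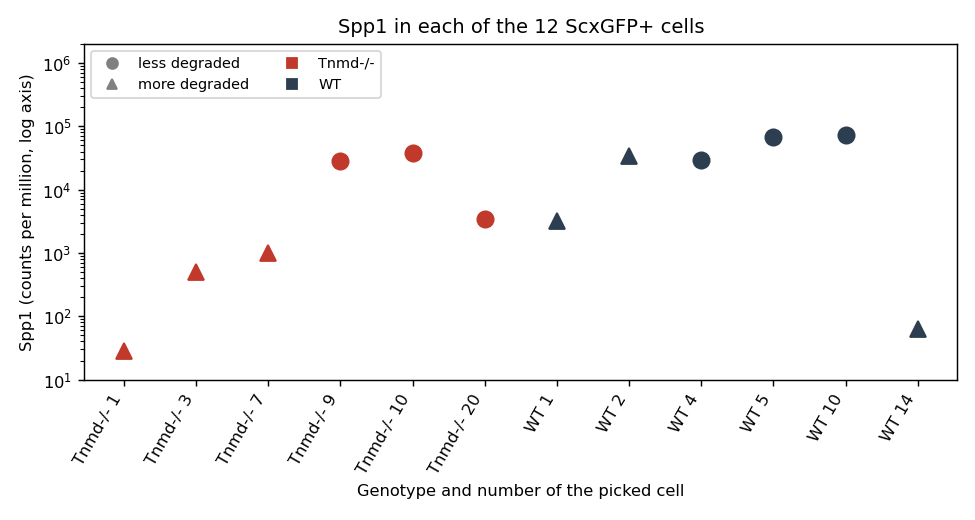
Spp1 level in CPM (log axis) in each of the 12 cells, by genotype (colour) and degradation level (circle, less; triangle, more), 1 point per cell. The points run from 27.9 CPM in Tnmd-/- cell 1 to 71904 CPM in WT cell 10, and the genotypes overlap.

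Spp1 was the gene with the most counts in WT cell 5, the value for which the family was chosen. There it had 811654 counts, 6.75% of the cell, and the next gene, Fth1 (ferritin heavy chain), had 357605. Just outside that choice were WT cells 2, 4 and 10, in which Spp1 ranked 2. The leading gene was Clu, the secreted chaperone clusterin, in WT cells 2 and 4, and Dcn, the collagen-binding proteoglycan decorin, in WT cell 10. In Tnmd-/- cells 9 and 10 Spp1 ranked 3, behind Clu and Dcn. Spp1 was thus among the 3 leading genes of 6 cells. In the other 6 it ranked 33 (WT cell 1), 36 (Tnmd-/- cell 20), 227 (Tnmd-/- cell 3), 247 (Tnmd-/- cell 7), 835 (WT cell 14) and 2109 (Tnmd-/- cell 1). The leading genes of the cells not yet named were mt-Rnr2, a mitochondrial ribosomal RNA, in Tnmd-/- cells 1 and 3, the nuclear noncoding RNA Malat1 in Tnmd-/- cell 7, Dcn in Tnmd-/- cell 20 and WT cell 14, and Clu in WT cell 1.

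Per kilobase of exon Spp1 stood higher still, since its exons are short. It was the leading gene in 5 cells, WT cells 2, 4, 5 and 10 and Tnmd-/- cell 10. In WT cell 10 it had 43631 CPM per kilobase against 31284 for 1500015O10Rik, the secreted augurin gene, which came next. In WT cell 5 it had 40976 CPM per kilobase against 23359 for Npy, which encodes neuropeptide Y. In WT cell 4 the margin was small, 17869 CPM per kilobase against 17020 for Ftl1, a ferritin light chain gene. In Tnmd-/- cell 10, Spp1 had 23280 and Clu 21597 CPM per kilobase. These neighbours were chosen for their rank after the values were seen.

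For description, the 12 levels were divided at their widest step into an upper and a lower set of 6, after the values were seen. The 6 highest cells, 4 WT and 2 Tnmd-/-, held 98.5% of all Spp1 counts. Between the lowest of them, Tnmd-/- cell 9, and the next, Tnmd-/- cell 20, the level dropped 8.18-fold. Within the upper set no step between neighbours passed 1.76-fold, and the pairs WT 10 and WT 5, and WT 4 and Tnmd-/- cell 9, lay 1.06-fold and 1.04-fold apart. In the lower set, Tnmd-/- cell 20 and WT cell 1 were 1.07-fold apart, and the widest step, 7.96-fold, stood between Tnmd-/- cell 3 and WT cell 14. That step was nearly as wide as the 8.18-fold step between the sets. The counting intervals of the 2 cells did not overlap at any of these steps, but they treat amplified reads as independent. No step could be set against a spread of replicates.

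Few genes were read in every cell. At 10 counts or more, 213 genes were seen in all 12 cells, a share of 2.18% of the 9768 whose counts summed to 20 or more. Among the 921 genes that reached 1000 CPM in any cell, as Spp1 did, the share was 20.3%. For these 213 genes the highest level was between 3.88-fold and 5341-fold over the lowest, with a median of 154-fold. Spp1, at 2580-fold, had position 4 from the top. The 3 genes above it were Mgp, the gene of matrix Gla protein, Col1a2, a chain of type I collagen, and 1500015O10Rik, all chosen here for this position after the values were seen. Spp1 was thus a gene with both a read in every cell and a wide range. Since Spp1 was chosen for its high level in a WT cell, a high maximum, and with it a wide range, was favoured in advance.

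**Figure D2:**
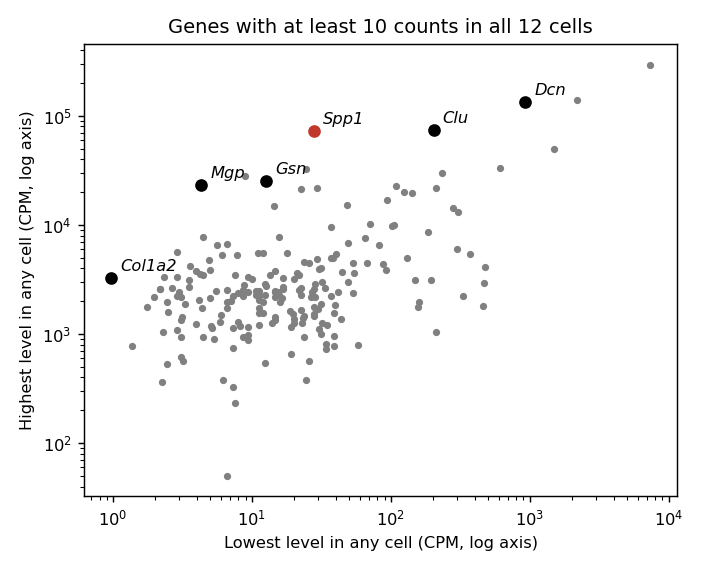
Lowest level (horizontal) against highest level (vertical) over the 12 cells, both in CPM on log axes, for the 213 genes seen in all 12 cells at 10 counts or more, each a point. Spp1 (red) ran from 27.9 to 71904 CPM, a 2580-fold range against a median of 154-fold over these genes, and Mgp, Col1a2, Gsn, Clu and Dcn are named for comparison. Spp1 was chosen for a high level, which favours a wide range.

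The question of the design was whether cells without tenomodulin differ from WT cells. Summed over the 6 cells, Spp1 had 712932 counts in Tnmd-/- and 2343145 in WT cells, or 20318 and 43847 CPM. The Tnmd-/- sum was lower, with a log2 ratio of −1.11 (counting interval −1.11 to −1.11). In 50.4% of the 9768 genes the pooled ratio, with 1 CPM added, was past 4-fold in either direction, and the Spp1 ratio was within it. The mean over cells was 11943 ± 16914 CPM (SD, n = 6 cells) in Tnmd-/- and 34418 ± 30589 CPM (SD, n = 6 cells) in WT cells, and the medians were 2235 and 31885 CPM. The levels of single cells overlapped between genotypes. The largest single share of a sum was 55.5%, from Tnmd-/- cell 10, in Tnmd-/- and 41.8%, from WT cell 10, in WT cells. Without Tnmd-/- cell 10 the log2 ratio was −1.77, without WT cell 10 it was −0.75, and without WT cell 5 it was −0.86. The family was chosen for the Spp1 level of WT cell 5, whose counts are in the WT sum. That choice favoured a lower Tnmd-/- sum in advance.

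The size of the ratio differed between the levels of degradation. In the less degraded cells the pooled Spp1 level was 25972 CPM in Tnmd-/- and 56626 CPM in WT, a log2 ratio of −1.12. In the more degraded cells it was 232 and 12087 CPM, a log2 ratio of −5.70. WT cell 2 held 89.4% of the Spp1 counts of the more degraded WT cells. The mean of log2 CPM, a summary added after the data were seen, differed by −2.37 between genotypes.

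The Spp1 level also differed between the degradation levels. The less degraded cells held 93.9% of Spp1 counts and 74.0% of all counts, and their pooled level was 43810 CPM against 8121 CPM in the more degraded cells, a log2 ratio of 2.43. A ratio past 4-fold in that direction was seen for 33.7% of the 9768 genes, and in the opposite direction for 22.1%. In Tnmd-/- every less degraded cell (3462 CPM or more) was above every more degraded cell (1008 CPM or less). Such an order was seen for 4.15% of the 9768 genes and for 26.8% of the 213 genes read in all 12 cells. In WT the levels overlapped, since the more degraded WT cell 2, at 34321 CPM, was above the less degraded WT cell 4, at 29448 CPM. A full separation of the WT cells was seen for 5.33% of the 9768 genes and for 5.63% of the 213.

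Cells that differ in genotype and degradation level are described here together. Across the 12 cells the rank correlation of Spp1 CPM with the total count of the cell was 0.75 (Spearman). It was 0.71 within each genotype. Among the 6 less degraded cells it was also 0.71, whereas among the 6 more degraded ones it was 0.086. At like depth, WT cell 2 with 4825610 counts and WT cell 14 with 4516036 counts differed 554-fold in Spp1. When every cell was thinned at random to 892713 counts, Spp1 kept 27 counts in Tnmd-/- cell 1, 60 in WT cell 14 and 64124 in WT cell 10. The part of degradation in the genotype ratio was not tested.

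**Figure D3:**
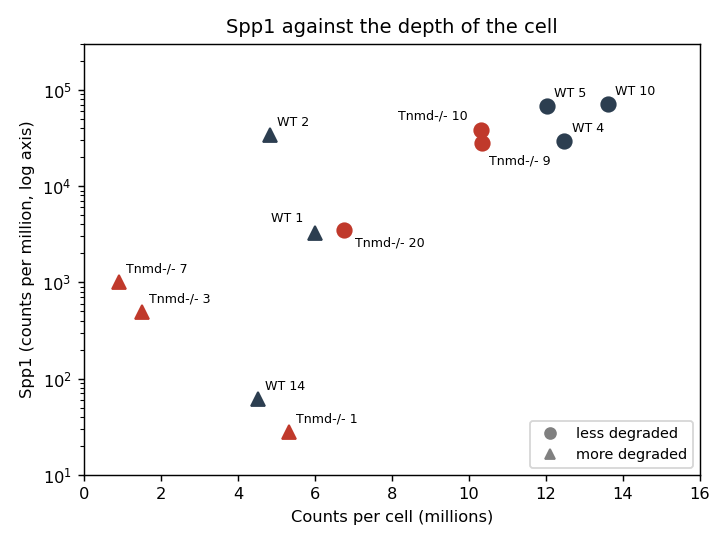
Spp1 level (CPM, log axis) against the total count of the cell, 1 point per cell, coloured by genotype, with less degraded cells as circles and more degraded cells as triangles. The 5 cells with the most counts held 28302 CPM or more, and WT cells 2 and 14, at like depth, lay 554-fold apart.

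The other SIBLING genes were at or near 0. Most genes of the table were at 0 as well, since 13266 of the 55418 had at least 1 count in any cell. Ibsp, which encodes a nucleator of hydroxyapatite, had 3 counts in WT cell 1 (0.501 CPM) and none in the other 11 cells. Dmp1 and Mepe, genes of osteocyte proteins that act in mineralization and phosphate balance, had 0 counts in all 12 cells. Dspp, the main noncollagenous protein gene of dentin, also had 0 counts in all. Over the sum of 88527742 counts, a floor of 3 counts stands at 0.0339 CPM. This is a floor for reads amplified from single cells without molecular identifiers, and it does not bound the transcript level. The floor was 0.0855 CPM for the Tnmd-/- and 0.0561 CPM for the WT sum, and 0.220 to 3.36 CPM in single cells. No ratio is given for these 4 genes. They were not detectable at this depth, apart from the 3 counts of Ibsp, and this says nothing of their level in other tendon cells.

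The genes next to the family were also low or patchy. On the Dspp side, Nudt9, an ADP-ribose hydrolase gene, reached 36.6 CPM in WT cell 1, Sparcl1, a matricellular protein gene, had 1970 of its 1973 counts in WT cell 5, and Gm17660 had 0 counts. On the Spp1 side, Pkd2, which encodes the cation channel polycystin-2, was seen in 6 cells and reached 289 CPM in WT cell 5. BC005561 was seen in 4 cells and reached 230 CPM in Tnmd-/- cell 7, and Zfp951 had 2 counts in all. Spp1 alone among these 11 genes was seen in more than 6 cells.

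**Figure D4:**
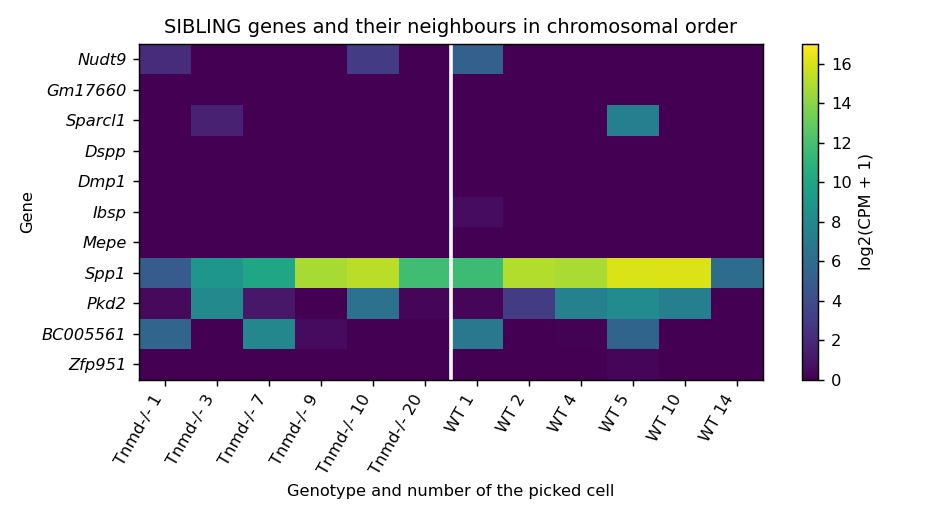
Level as log2(CPM + 1) (colour) of the 5 SIBLING genes and the 3 nearest protein-coding genes on each side, in chromosomal order from top to bottom, in each cell; the white line divides Tnmd-/- from WT cells. The Spp1 row is filled in all 12 cells, Ibsp shows 0.501 CPM in WT cell 1, and the Dspp, Dmp1 and Mepe rows are at 0.

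Osteopontin binds CD44 and several integrins. Of 11 receptor genes, 7 had at least 20 counts, and Itgb3, Itgb6, Itga4 and Itga8 had 0 counts in all cells. Itgb3 is the partner of Itgav in the classical osteopontin receptor. Of the 7, 0 were higher and 2 were lower in Tnmd-/- past 4-fold, where 24.3% of all 9768 genes were higher and 26.1% lower. The median log2 ratio of the 7 genes, with 1 CPM added, was −1.15, and that of all genes was 0.06.

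Cd44, the hyaluronan receptor, was seen in all 12 cells, at 15.7 to 2257 CPM. Its pooled levels were 1153 CPM in Tnmd-/- and 1269 CPM in WT cells, a log2 ratio of −0.14, and the ranges overlapped. Itgb1, the β1 integrin chain shared by most collagen and fibronectin receptors, was seen in 11 cells, reached 2269 CPM in WT cell 2 and had a log2 ratio of −1.15. Itgav, the αv chain, was seen in 6 cells, with 30.6 CPM in Tnmd-/- and 121 CPM in WT sums, a log2 ratio of −1.99. In WT cell 10, with the most Spp1, Itgav had 34 and Itgb1 had 16 counts, and Cd44 was at 358 CPM. In WT cell 5, next in Spp1, Itgav was at 267, Itgb1 at 402 and Cd44 at 2028 CPM, so the pair of cells with the most Spp1 differed in these receptors.

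The receptor genes past 4-fold each rested on a few cells. Itgb5, the β5 chain, had 9 counts in Tnmd-/- and 5919 in WT cells, of which WT cell 5 held 5239, and its log2 ratio was −8.75 (−9.88 to −7.83). Itga9, the α9 chain, had 1 count in Tnmd-/- and 793 in WT cells, 792 of them in WT cell 2, a log2 ratio of −9.02 (−14.33 to −6.54). Itga5, the fibronectin receptor chain, was seen in 8 cells with a log2 ratio of −0.41. Itgb8, below 100 CPM in every cell and named here after its values were seen, had 88 counts in Tnmd-/- and 0 in WT cells.

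Of 16 genes for enzymes that phosphorylate, cross-link or cleave SIBLING proteins, 7 had at least 20 counts, 0 higher and 3 lower in Tnmd-/- past 4-fold (24.3% and 26.1% of all genes), with a median log2 ratio of −1.73 against 0.06 over all genes. The 8 genes at 0 counts were F2, Mmp3, Mmp7, Mmp9, Mmp20, Tll1, Mme and Plau, so the thrombin and stromelysin genes known to cleave osteopontin were not read. Fam20c, the kinase that phosphorylates secreted SIBLING proteins, was seen in 6 cells, with 324, 58.0 and 416 CPM in Tnmd-/- cells 1, 9 and 10 and 185, 175 and 66.5 CPM in WT cells 1, 4 and 10. Its pooled log2 ratio was 1.26. Tgm2, a transglutaminase that cross-links osteopontin, was seen in 7 cells and reached 1010 CPM in WT cell 1, with a log2 ratio of −1.73.

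Ctsb, the cysteine protease cathepsin B, was seen in 11 cells and reached 1424 CPM in Tnmd-/- cell 9, with a log2 ratio of 1.02. Fam20a, a pseudokinase that aids Fam20c, had all 706 counts in WT cell 1, and 0 in Tnmd-/- cells, a log2 ratio of −7.27 or lower against the floor of the Tnmd-/- sum. Bmp1, the procollagen C-proteinase that processes Dmp1 and Dspp, had 1305 of its 1308 counts in WT cell 4. The third gene past 4-fold, Mmp2, had 0 counts in Tnmd-/- and 320 in WT cells, of which WT cell 4 held 307. Mmp2 was below 100 CPM in every cell and is named here after its values were seen. For each of the 3 genes, 1 WT cell carried the ratio.

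Most genes of bone-forming cells had no counts, as had most genes of the table, where 13266 of 55418 had at least 1 count. Of 16, 11 had 0 counts in all 12 cells, among them Sp7 (osterix, the osteoblast transcription factor), Alpl (alkaline phosphatase), Bglap and Bglap2 (osteocalcin), Phospho1, Ifitm5 and the osteocyte genes Sost and Fgf23. Of the 5 with at least 20 counts, 2 were higher and 2 lower in Tnmd-/- past 4-fold (24.3% and 26.1% of all genes), and the median log2 ratio was −0.18 against 0.06 over all genes. Runx2, the master regulator of osteoblasts, had 1901 of its 1902 counts in WT cell 14, where Spp1 was at 62.0 CPM. Dlx5, a homeobox gene of the osteoblast lineage named here after its values were seen, had 662 of its 664 counts in WT cell 10, where Spp1 was at 71904 CPM. Pdpn, also expressed by fibroblasts, reached 2326 CPM in Tnmd-/- cell 1, where Spp1 was at 27.9 CPM. Omd, the proteoglycan osteomodulin, reached 768 CPM in Tnmd-/- cell 10, where Spp1 was at 38366 CPM. Col1a1, a chain of type I collagen that tendon cells also make, reached 2221 CPM in Tnmd-/- cell 7, where Spp1 was at 1008 CPM. The 5 genes thus peaked in cells with low and with high Spp1.

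Osteopontin is an inhibitor of mineral growth, and 6 other genes for inhibitors were read beside it. Ahsg and Abcc6 had 0 counts. Of the other 4, 0 were higher and 3 lower in Tnmd-/- past 4-fold (24.3% and 26.1% of all genes), with a median log2 ratio of −3.32 against 0.06 over all genes. In the comparison of less with more degraded cells, 4 of 4 were higher in the less degraded cells past 4-fold (33.7% of all genes), with a median log2 ratio of 5.16 against 0.49 over all genes.

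Mgp, which binds calcium and blocks crystal growth, was at 4.33, 87.7, 242, 23131, 5.82 and 15.1 CPM in Tnmd-/- cells 1, 3, 7, 9, 10 and 20. In WT cells 1, 2, 4, 5, 10 and 14 it was at 1351, 597, 10362, 13312, 15254 and 34.1 CPM. Mgp was thus high in 1 Tnmd-/- and 3 WT cells that also held much Spp1, and low in Tnmd-/- cell 10, where Spp1 was at 38366 CPM. In WT cell 2, with Spp1 at 34321 CPM, Mgp was at 597 CPM, below its level in WT cell 1. Its pooled log2 ratio of genotypes was −0.48. Ank, the pyrophosphate transporter, Enpp1, which makes pyrophosphate, and Nt5e, the ecto-5′-nucleotidase CD73, had log2 ratios of −2.25, −4.86 and −9.19. Enpp1 had 4035 counts in the WT cells, all in WT cell 10, and Nt5e was seen in WT cells 4, 5 and 10 and in no other.

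**Figure D5:**
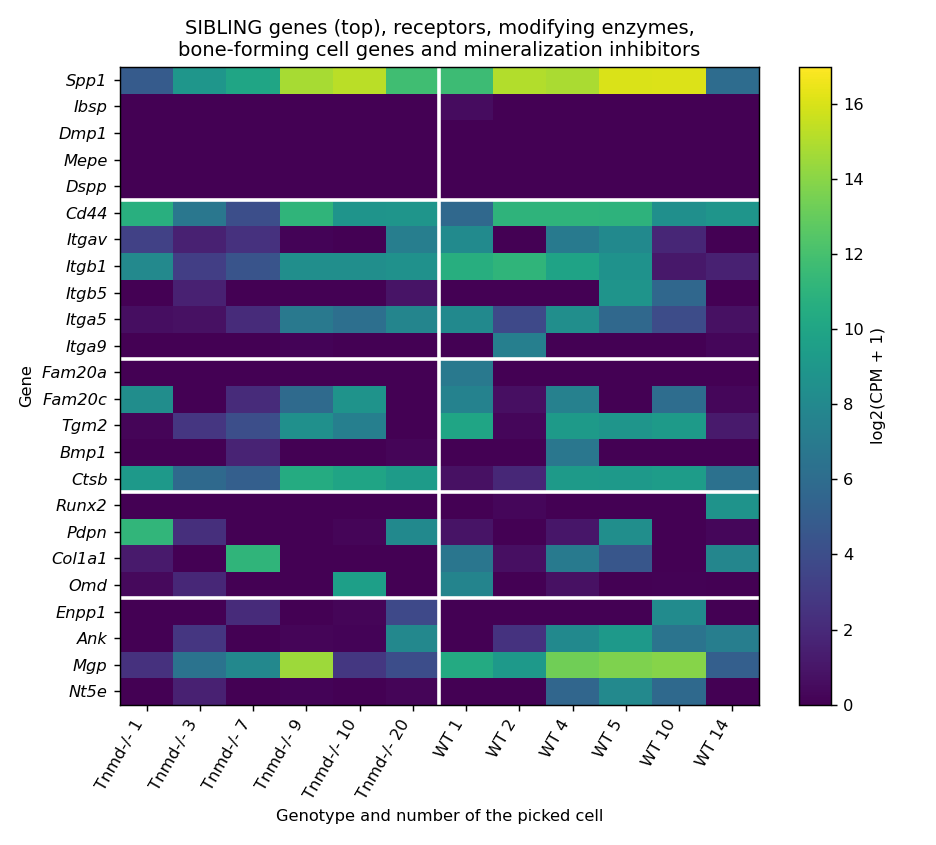
Level as log2(CPM + 1) (colour) of the 5 SIBLING genes and of the receptor, enzyme, bone-forming cell and mineralization inhibitor genes with at least 100 CPM in any cell, from top to bottom in blocks divided by white lines, in each of the 12 cells. Spp1 and Cd44 are filled in all 12 cells and Mgp spans 4.33 to 23131 CPM.

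Spp1 is also made by macrophages, osteoclasts and hypertrophic chondrocytes, so markers of these cells were read in the same libraries. Genes at 0 in these lists are to be set against the whole table, where 13266 of 55418 genes had at least 1 count. Of 15 monocyte and macrophage genes, 11 were at 0 counts in all cells, including Ptprc, Csf1r, Adgre1, Lyz2 and Tyrobp. Their summed level was 0 to 266 CPM in Tnmd-/- and 0.160 to 361 CPM in WT cells, mainly from Cd14, Itgam and Mrc1. Cd14, a lipopolysaccharide co-receptor gene, was seen in Tnmd-/- cell 9 and WT cells 5 and 10, at 265, 361 and 112 CPM. All 3 cells were less degraded and among the 6 highest in Spp1. Itgam was seen in Tnmd-/- cell 1, which had the lowest Spp1, and Mrc1 in Tnmd-/- cells 7 and 20, which were not among the 6 highest. Of 9 osteoclast genes, 7 were at 0, Acp5 and Calcr among them. The summed level was 2.42 to 3061 CPM in Tnmd-/- and 0 to 4293 CPM in WT cells, all from Ctsk, the collagen-degrading cathepsin K, which reached 4285 CPM in WT cell 4, and the transcription factor gene Nfatc1, at 1396 CPM in WT cell 2. In the 6 cells highest in Spp1 the osteoclast sum was 0.147 CPM (WT cell 10), 1649 CPM (WT cell 5), 446 CPM (Tnmd-/- cell 10), 2570 CPM (WT cell 2), 4293 CPM (WT cell 4) and 2.42 CPM (Tnmd-/- cell 9), and in the other 6 it was 0 to 3061 CPM.

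Of 5 hypertrophic cartilage genes, Col10a1, Ihh, Pth1r and Mmp13 were at 0, and the sum, all from Vegfa, was at most 129 CPM in Tnmd-/- and 0.167 CPM in WT cells. Of 15 cartilage genes 8 were at 0, Col2a1 among them, and the sums were 474 to 26573 CPM in Tnmd-/- and 6960 to 41870 CPM in WT cells. Comp and Chad, matrix protein genes that tendon cells express as well, were seen in all 12 cells, and Acan and Sox9 reached 1042 and 482 CPM in Tnmd-/- cells 10 and 9. Acan was seen in 5 cells, Tnmd-/- cells 9 and 10 and WT cells 2, 4 and 10, all among the 6 highest in Spp1. In WT cell 5, also among these 6, Acan had 3 counts. Sox9 was seen in 7 cells, among them Tnmd-/- cell 1 and WT cell 14, which had the lowest Spp1. The 15 tendon fibroblast genes summed to 1694 to 77066 CPM in Tnmd-/- and 26696 to 157830 CPM in WT cells, with Kera and Tnc at 0. Dcn alone gave 76582 of the 77066 CPM in Tnmd-/- cell 10 and 133605 of the 157830 CPM in WT cell 14. In Tnmd-/- cell 7 it gave 9600 of 19437 CPM. Dcn, Bgn and Col1a2 were seen in all 12 cells, but Scx and Mkx in 3 and Tnmd in 1. Sums of endothelial (up to 30.9 CPM), mural (up to 668 CPM), skeletal muscle (up to 14.6 CPM), adipocyte (up to 922 CPM) and glial (up to 1239 CPM) genes were lower, and 6 red blood cell genes were at 0. The part of other cell types in the Spp1 level was not tested.

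The genes whose levels ranked the 12 cells most like Spp1 were found among the 3190 genes that were seen in 4 or more cells. The Spearman correlation was 0.89 for Atp5mpl, a small subunit gene of ATP synthase, 0.89 for Gabarapl2, an autophagy gene, 0.85 for Sgms2, a sphingomyelin synthase gene, 0.84 for Ddit4l, an inhibitor of mTOR signalling, and 0.83 for Acot7, an acyl-CoA thioesterase gene. These are the top 5 of 3190 over 12 cells that differ in depth and degradation level, each with its own library. The part of depth and degradation in these correlations was not tested. Sgms2 ran from 8.64 CPM in Tnmd-/- cell 3 to 942 CPM in WT cell 5. Gabarapl2 was at 1.99 CPM or less in Tnmd-/- cells 1 and 3 and WT cell 14, and at 686 CPM in WT cell 4. By Pearson correlation of log2(CPM + 1) only Gabarapl2 of these stayed among the top 5. Of other abundant genes, Clu, Mgp, Dcn and Chad had Spearman correlations of 0.71, 0.56, 0.45 and 0.42, at positions 36, 218, 435 and 501 of 3190. Comp was at −0.08, at position 2250. Any gene outside the top 5 lies below them by the ranking itself.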

How the data were processed

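Per the labels and the study's methods, the authors trimmed reads (BBDuk), removed reads not specific to mouse (BioBloom Tools), aligned with STAR 2.5.1b to GRCm38 and counted uniquely mapped exonic reads (featureCounts in Subread 2.0.0). The deposited table holds raw counts for each gene and cell, whole numbers without normalization or molecular identifiers. The strand setting is not given in the sources used here. The authors' exon lengths in the same table gave the values per kilobase.

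Groups came from the labels, and degradation levels from the marking of the study's heat map. The members and lists were chosen with earlier results of these data known. CPM was the count per 1000000 counts of the cell. Pooled ratios used counts summed by genotype, with exact 95% intervals. Where 1 sum was 0, the other was set against a floor of 3 counts. Genes with 20 or more counts over all cells entered counts past 4-fold, with 1 CPM added, and 10 counts made a gene seen in a cell. Named were the 5 members, the leading gene of each cell, list genes at 100 CPM or more and defining markers at 0, the 5 genes most like Spp1, the chromosomal neighbours, Tnmd and Scx. Other genes are said to have been chosen after their values were seen. Python 3.11.15, scipy 1.17.1, R 4.3.3, edgeR 4.0.16 and DESeq2 1.42.0 were used, the last 2 for scaling factors only. Scripts were tested on simulated data. Alternatives were other scalings, thresholds, each degradation level and each cell left out.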

Additional observations from a re-analysis of the deposited data

Results flagged for a closer look

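Among 13 sets of values checked for a cell far from the rest of its genotype, 2 were found. The nominal rate of such flags by chance is about 1 in 20, which was not checked for values with many zeros like these. The number of flags is therefore not set against chance. Ibsp was at 0.501 CPM in WT cell 1, from 3 counts, and at 0 in the other 5 WT cells. The check divides the gap to the next cell by the range of the genotype, which gives 1 whenever a single cell is above 0. The Ibsp flag thus followed from any count at all. The summed level of the mineralization inhibitor genes was 23131 CPM in Tnmd-/- cell 9, nearly all from Mgp, against 277 CPM in the next Tnmd-/- cell. Tnmd-/- cell 9 is a less degraded cell and held 28302 CPM of Spp1.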

How the results depend on the processing

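Spp1 was chosen for its level in a WT cell, so the sign of its pooled log2 ratio (−1.11) is a description only. The ratio stayed negative under every alternative run. It was −1.70 with edgeR TMM factors, −1.61 with DESeq2 size factors, −1.53 with equal weight per cell, −1.14 with totals without mitochondrial genes and the 50 leading genes, −1.14 with totals without Spp1, −1.12 and −5.70 in the less and more degraded cells, and −2.37 by mean log2 CPM, added after the data were seen. Leaving out each cell gave −1.77 to −0.75. The share of genes past 4-fold (50.4%) was 33.2% with 5 CPM added, 37.1% from 1 count, 59% from 100 counts, 54.8% and 72.5% in the less and more degraded cells, and 50.7% to 54.9% with a cell left out. With the reduced totals Spp1 ran from 39.3 to 149758 CPM. Ibsp was seen in 1 cell at 1 count or more. Receptor genes past 4-fold numbered 1 with 5 CPM added, 1 and 5 in the less and more degraded cells and 2 to 4 with a cell left out, 4 without Tnmd-/- cell 20. Enzyme genes numbered 1 with 5 CPM added and 1 to 4 with a cell left out, 1 without WT cell 4. Bone-forming cell genes numbered 2 to 5, 2 without WT cell 10, and mineralization inhibitors 2 to 3. The causes were not tested. No paired analysis was possible because no result comes from a test and the shared cell numbers only name picked cells. With 1 sample per genotype, counting intervals say nothing of the spread between animals.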
